A study of Homo sapiens with 24 samples.

Results

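The data described here are the levels of 46 genes of squamous differentiation and the cornified envelope in cell lines made from human prostate epithelium. The genes were chosen as a list of symbols, with earlier results of these data known. All 46 were present among the 60448 symbols of the deposited tables and among the 19203 of those symbols that GENCODE version 29 gives as protein-coding. By role they were 8 small proline-rich proteins, 5 envelope precursors and filament-binding proteins, 3 transglutaminases, 7 adhesion genes, 7 kallikreins, 5 protease inhibitors, 4 S100 proteins, 5 secreted or other late differentiation genes and 2 transcription regulators. Prostate epithelium has basal and luminal cells and does not normally cornify.

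When a stratified squamous epithelium such as epidermis matures, its cells build a tough protein shell, the cornified envelope, just inside the plasma membrane. Transglutaminases cross-link involucrin, loricrin and small proline-rich proteins into that shell, filaggrin packs the keratin filaments, and desmosomes tie neighbouring cells together until kallikrein proteases, held in check by inhibitors such as LEKTI (SPINK5), cut the junctions and let the cells shed. Many of the structural genes lie side by side in the epidermal differentiation complex, and GRHL3 and ZNF750 are transcription factors that switch on late differentiation genes.

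Messenger RNA was sequenced in 24 libraries that fall into 6 groups of cell line and stage. BPH-1 cells, from benign prostatic hyperplasia and immortalized by SV40, gave 3 libraries of vector control cells, 3 of C-Raf parental cells and 6 of metastasis-derived lines. From RWPE-1 cells, immortalized by HPV18, there were 1, 4 and 7 libraries of the same stages. Vector control cells carried the empty ILYW vector, C-Raf parental cells carried non-mutated C-Raf under a ubiquitin promoter in a lentiviral vector, and both carried luciferase reporters. The metastasis-derived lines were grown for about a week from tumors of bone, lymph node, spine or thymus, cut out of immune-deficient NSG mice after intracardiac injection of the C-Raf parental cells. The labels name DMEM with serum for BPH-1, where the methods name RPMI, and a serum-free keratinocyte medium with growth supplements for RWPE-1, so cell line and medium cannot be told apart. Nothing in the labels says that libraries of 1 group came from separate cultures, so p-values measure only the spread between these libraries, which may be technical. The BPH-1 lines R075 carry titles that name bone and thymus and treatment labels that name the opposite site, so no comparison of sites was made, and whether they came from 1 mouse is not stated.

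Of the libraries, 21 held 20564794 to 41985563 protein-coding counts. The other 3, R071, R074 and the R075 library titled bone, all from BPH-1 lines, held 111162 to 464692, because 93.3% to 97.5% of their counts fell on the noncoding RNA RN7SL1. That RNA took 4.60% to 30.3% in the 3 deeper BPH-1 metastasis-derived libraries and at most 0.00932% in the remaining 18. The 3 libraries of low depth were therefore left out of the BPH-1 tests below and are described beside them. Levels are in CPM, counts scaled to a common total of protein-coding counts with TMM factors. All 7 epithelial markers (EPCAM, CDH1, KRT8, KRT18, KRT5, KRT14 and TP63) reached 1 CPM in every group. The luminal secretory markers KLK3 and KLK2 were listed at 0 in every group, except that KLK2 had counts in the BPH-1 metastasis-derived lines.

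To show what the genes carry at their start sites, the promoters of 4 envelope genes of chromosome 1 follow, each 300 bases from 250 before to 50 after the transcription start, read 5′ to 3′ on the gene's own strand from RefSeq on GRCh38.p14. They are SPRR1B at chr1:153030953-153031252 on the plus strand, SPRR2A at chr1:153057463-153057762 on the minus strand, SPRR3 at chr1:153001499-153001798 on the plus strand and IVL at chr1:152908296-152908595 on the plus strand. Capitals mark the letters TGANTCA, the site that AP-1 factors such as JUN and FOS are known to bind, and TATAAA, the TATA box.
SPRR1B: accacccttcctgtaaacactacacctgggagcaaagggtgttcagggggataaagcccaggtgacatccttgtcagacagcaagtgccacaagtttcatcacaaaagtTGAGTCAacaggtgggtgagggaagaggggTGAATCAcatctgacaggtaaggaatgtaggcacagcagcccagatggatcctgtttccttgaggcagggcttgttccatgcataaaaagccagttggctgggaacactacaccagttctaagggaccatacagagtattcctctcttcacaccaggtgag
SPRR2A: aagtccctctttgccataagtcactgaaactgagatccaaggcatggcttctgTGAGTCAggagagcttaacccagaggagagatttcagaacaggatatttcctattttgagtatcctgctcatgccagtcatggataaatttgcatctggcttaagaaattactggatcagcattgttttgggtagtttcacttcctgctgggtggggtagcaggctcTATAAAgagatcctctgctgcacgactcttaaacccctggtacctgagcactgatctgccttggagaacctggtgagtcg
SPRR3: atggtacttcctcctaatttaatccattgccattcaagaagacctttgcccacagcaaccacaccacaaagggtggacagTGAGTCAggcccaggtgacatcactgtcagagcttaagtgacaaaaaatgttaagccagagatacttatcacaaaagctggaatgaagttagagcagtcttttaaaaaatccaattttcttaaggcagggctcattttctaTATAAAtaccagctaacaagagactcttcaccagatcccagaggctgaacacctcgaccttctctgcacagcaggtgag
IVL: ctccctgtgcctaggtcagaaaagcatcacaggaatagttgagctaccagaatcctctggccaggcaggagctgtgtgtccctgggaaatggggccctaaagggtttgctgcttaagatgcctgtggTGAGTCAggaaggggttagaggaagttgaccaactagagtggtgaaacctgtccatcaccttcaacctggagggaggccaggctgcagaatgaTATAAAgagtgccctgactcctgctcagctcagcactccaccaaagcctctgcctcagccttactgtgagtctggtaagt

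The SPRR1B promoter held TGANTCA at -141 and -111 from the start and no TATAAA. The other 3 held TGANTCA once each, at -197 in SPRR2A, -170 in SPRR3 and -123 in IVL, and TATAAA at -30, -29 and -30. RefSeq promoters were matched for 37 of the 46 genes. Searched on both strands, TGANTCA occurred in 12 of the 37 (32.4%), against 7.76% of all 27305 promoters in the table and 5.75% of the 15843 of protein-coding genes. TATAAA occurred in 14 of 37 (37.8%), against 11.95% of all promoters and 9.63% of those of protein-coding genes. The grainyhead letters AACCNGTT, the kind of site GRHL3 binds, occurred in 3 of 37 (8.11%), in TGM5, SPINK5 and S100A9, against 1.73% of all promoters. The ETS letters AGGAAGT also occurred in 3 (8.11%), against 8.31%, and the KLF letters CCACACCC in 0, against 3.22%. These letter matches are descriptions of the windows, and none of them shows that a factor was bound.

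Many of the genes are neighbours. On GRCh38, 15 of them (the 8 SPRR genes, IVL, LOR, FLG and the 4 S100 genes) lay in the epidermal differentiation complex at chr1:152302175-153460701. The 7 kallikreins lay at chr19:50943303-51065114, the desmosomal cadherins DSG1, DSG3, DSC2 and DSC3 at chr18:30990008-31478702, SERPINB3 and SERPINB4 at chr18:63637259-63661963, and DMKN, KRTDAP and SBSN at chr19:35487324-35528351. Near copies share sequence. Of the 50-base stretches of their transcripts, 32.7% of SPRR2A, 23.4% of SPRR2E, 23.3% of SERPINB3 and 34.1% of KLK8 also occur in another gene, so the split of counts among SPRR2 genes, between SERPINB3 and SERPINB4 and between KLK8 and an overlapping gene model is uncertain. The strand setting of the counting was not given in the sources used here, and FLG, A2ML1, DSG1, DSC2, CDSN, SERPINB3, GRHL3 and ZNF750 overlap a gene on the opposite strand.

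As a group, the 46 genes took a larger share of the RNA in the BPH-1 metastasis-derived lines than anywhere else. They held 0.0540% ± 0.000835 (SD, n = 3) of protein-coding counts in BPH-1 vector control, 0.0610% ± 0.000789 (n = 3) in BPH-1 C-Raf parental and 0.815% ± 0.410 (n = 3) in the deeper BPH-1 metastasis-derived libraries. In RWPE-1 they held 0.0508% in the single vector control, 0.0395% ± 0.00444 (n = 4) in C-Raf parental and 0.0358% ± 0.00537 (n = 7) in metastasis-derived libraries. The lowest deeper BPH-1 metastasis-derived line (0.450%) stood above every BPH-1 library of the earlier stages. The low-depth libraries R071 and R074 held 1.09% and 1.10%, and the library titled bone R075 held 0.111%. The denominator matters for these lines, since RN7SL1 took part of their counts. Of all counts, the genes held 0.515%, 0.490% and 0.377% in R069, R072 and R075 thymus (mean 0.461%), so R069 stood above R072, and 0.0590% to 0.0600% in the C-Raf parental libraries. In R071, R074 and bone R075 they held 0.0561%, 0.00520% and 0.000299% of all counts, below every C-Raf parental library, so the direction in the low-depth libraries turned with the denominator. In bulk RNA, more cells in a differentiated state and more of this RNA per cell cannot be told apart.

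**Figure D1:**
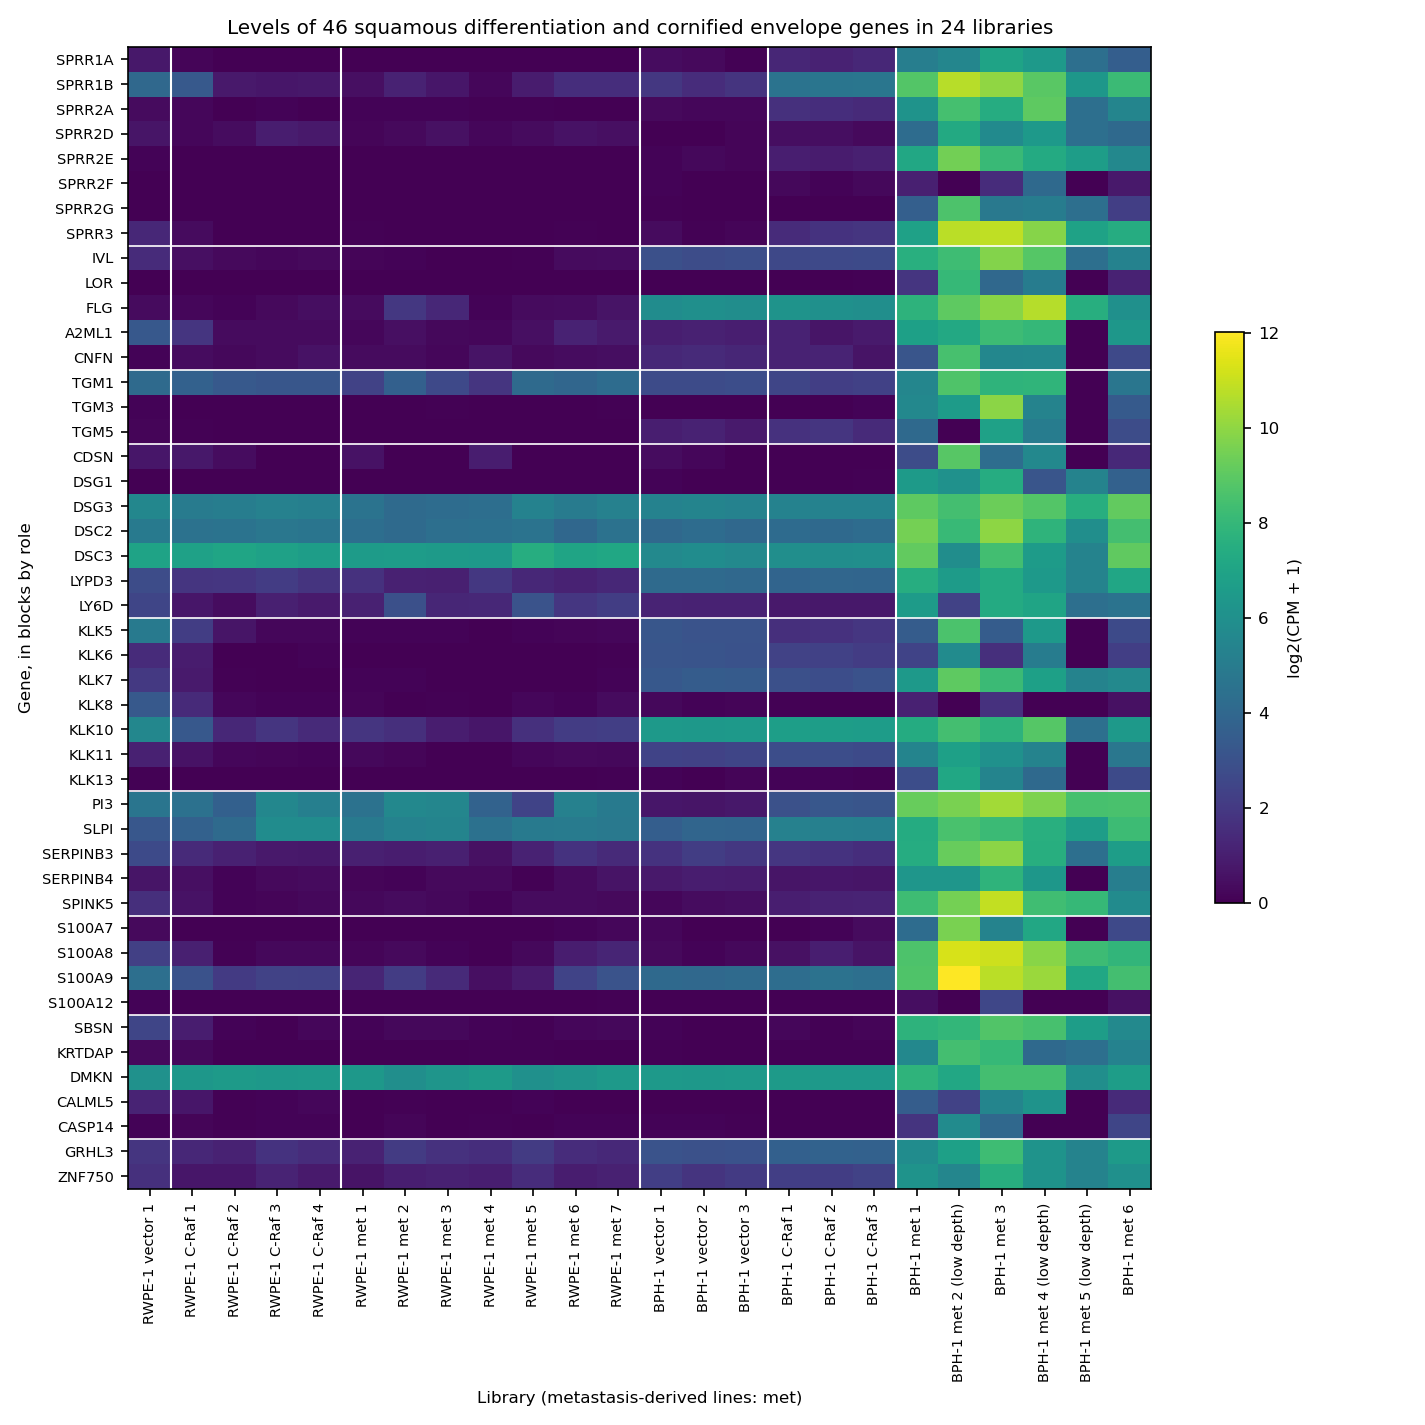
Level of each of the 46 genes (rows, in blocks by role) in each of the 24 libraries (columns, in groups by cell line and stage) as log2(CPM + 1), with color for the level; BPH-1 met 1 to 6 are R069, R071, R072, R074, R075 titled bone and R075 titled thymus. The block of high levels covers the BPH-1 metastasis-derived libraries, with gaps in R075 titled bone, where 18 genes are at 0 counts. In the 3 deeper libraries of that group the genes held 0.815% of protein-coding counts, against 0.0358% in the RWPE-1 metastasis-derived columns.

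The first comparison asks how the metastasis-derived lines differ from the C-Raf parental cells they came from, and in BPH-1 nearly the whole list was higher. By the quasi-likelihood test of edgeR, with p-values adjusted by Benjamini and Hochberg's method over 13444 genes, 43 of the 46 genes were higher in the 3 deeper metastasis-derived libraries than in the 3 C-Raf parental libraries at an adjusted p below 0.05, and 0 were lower. Of all genes tested, 20.9% were higher and 16.8% lower. Since the list was chosen with earlier results of these data known, its excess over these shares is not independent support. The same 43 of 46 is the count of genes whose groups did not overlap and were higher, against 27.8% of all genes tested. The median fitted log2 fold change was 5.94 over the 46 genes and 0.07 over all genes. It was 5.77 when the 10 genes with 0 to 5 counts in the C-Raf parental group were set at their lower bound or ratio. Of the 46, 15 were too low before the metastatic stage to be tested with and without C-Raf, so they entered this test through the metastasis-derived libraries, which favours a higher value there. They are SPRR2D, SPRR2F, SPRR2G, LOR, TGM3, CDSN, DSG1, KLK8, KLK13, S100A7, S100A12, SBSN, KRTDAP, CALML5 and CASP14, and the counts by role given next include them. Among the other 31, 28 were higher, and the median log2 fold change of the 31 was 4.67. All 6 metastasis-derived libraries stand in 1 table and the earlier stages of BPH-1 in another, and the share of RN7SL1 moves with the stage, so stage and table cannot be told apart.

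SPRR1B, a cross-bridging protein of the envelope, led the small proline-rich proteins in level per kilobase. It stood at 22.5, 24.4 and 25.5 CPM in C-Raf parental libraries 1 to 3 and at 450, 1021 and 291 CPM in the lines R069 (bone), R072 (bone) and R075 (titled thymus). Every metastasis-derived value lay above every parental one, a 24.4-fold difference of means, with a log2 fold change of 4.67 ± 0.54 (SE) and an adjusted p of 0.00258. SPRR3, the esophagin of esophageal lining, went from 1.75, 2.43 and 2.60 CPM to 115, 1870 and 173 CPM in the same order, with a log2 fold change of 8.38 ± 1.42 and an adjusted p of 0.00700. SPRR2G had 0 counts in all 3 C-Raf parental libraries and 11.3, 28.4 and 3.62 CPM in the lines. The mean of the lines was at least 449.5-fold higher when the parental group is set at a floor of 3 counts over the group. All 8 small proline-rich genes were higher, from a 7.79-fold difference of means in SPRR2F to that bound in SPRR2G. Summed, the 6 SPRR2 genes stood at 3.26 to 3.74 CPM in parental libraries and at 248, 545 and 112 CPM in R069, R072 and R075 thymus, with a log2 fold change of 6.51 ± 0.69 and an adjusted p of 0.00222.

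Of the envelope precursors and filament-binding proteins, 4 of 5 were higher. IVL, the involucrin scaffold laid down early in the envelope, stood at 5.14, 5.20 and 5.45 CPM in the parental libraries and at 190, 884 and 39.7 CPM in R069, R072 and R075 thymus. The groups did not overlap, and the log2 fold change was 6.21 ± 1.204 with an adjusted p of 0.0101. That p rose to between 0.0507 and 0.0530 when any 1 of the 3 parental libraries was left out. LOR, the loricrin that makes up much of the epidermal envelope, had 1 count in the parental group and 2.61, 15.9 and 1.21 CPM in the lines. Its ratio of counts pooled over the libraries of each group was 412 (95% counting interval 73.4 to 16312). Ratios given below with a counting interval are pooled in this way. Deeper libraries weigh more in them than in differences of means or in bounds from means. FLG, the filaggrin precursor, was already at 71.1, 64.5 and 60.7 CPM in the parental libraries and stood at 218, 949 and 64.8 CPM in the lines. Its lowest line lay within the parental range, and its log2 fold change of 2.72 ± 0.92 missed the threshold with an adjusted p of 0.0589. DESeq2 called it, at 2.77 with an adjusted p of 0.00275, the 1 gene of the list that DESeq2 alone called in this comparison. Both tools called 42 genes. For SPRR3, called by edgeR, DESeq2 gave a log2 fold change of 8.43 and no p-value.

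The cross-linking enzymes were higher in all 3 cases. TGM1, the membrane-bound keratinocyte transglutaminase, stood at 3.74 to 4.61 CPM in the parental libraries and at 45.2, 224 and 25.4 CPM in R069, R072 and R075 thymus, with a log2 fold change of 4.64 ± 0.90 and an adjusted p of 0.0103. TGM3, the epidermal transglutaminase, had 4 counts in the whole parental group and 47.9, 984 and 9.59 CPM in the lines. Its pooled ratio was 4642 (95% counting interval 1813 to 17040), and its means were 347 CPM in the lines and 0.0436 CPM in the parental libraries. R072 was far above the other lines for TGM3. Without C-Raf parental 1 or 2 its adjusted p was 0.0523 or 0.0506.

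LY6D, a GPI-anchored surface protein of squamous cells, stood at 0.748, 0.685 and 0.720 CPM in the parental libraries and at 95.2, 160 and 22.5 CPM in R069, R072 and R075 thymus. The groups did not overlap, and the log2 fold change was 7.06 ± 0.83 with an adjusted p of 0.00273. All 7 adhesion genes were higher. DSG1, the desmoglein of the upper epidermal layers, had 1 count in the parental group against 92.6, 172 and 12.1 CPM in the lines. Its pooled ratio was 7003 (95% counting interval 1256 to 2.77e+05). CDSN, the corneodesmosin that reinforces the last junctions, had 0 counts in the parental group and 5.98, 18.5 and 1.63 CPM in the lines, at least 271-fold higher against the same floor, and its adjusted p rose from 0.0143 to 0.0596 without R069. DSG3, DSC2 and DSC3, the basal and suprabasal cadherins, were expressed in parental cells at 39.3, 17.1 and 59.1 CPM on average and were 14.6-, 40.0- and 8.05-fold higher in the lines.

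The kallikreins, secreted serine proteases of shedding, were mixed. KLK7 was 21.3-fold, KLK11 7.58-fold and KLK5 3.73-fold higher, and KLK13 and KLK8 were higher from levels of 7 and 3 counts in the parental group. KLK10, the kallikrein with the highest level per kilobase in the parental cells, stood at 97.2 to 104 CPM there and at 164, 219 and 89.0 CPM in R069, R072 and R075 thymus, a log2 fold change of 0.69 ± 0.34 with an adjusted p of 0.149. KLK6 stood at 3.43 to 4.11 CPM against 4.38, 2.05 and 3.66 CPM, a log2 fold change of -0.14 ± 0.33 with an adjusted p of 0.75. For both genes the groups overlapped.

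The protease inhibitors were higher for 5 of 5. SPINK5, which encodes the kallikrein inhibitor LEKTI, stood at 1.03, 1.25 and 1.30 CPM in the parental libraries and at 309, 1907 and 54.4 CPM in R069, R072 and R075 thymus, a log2 fold change of 9.38 ± 1.57 with an adjusted p of 0.00678. PI3, the elastase inhibitor elafin and itself an envelope component, stood at 6.89, 8.66 and 7.95 CPM against 599, 1278 and 382 CPM, a log2 fold change of 6.65 ± 0.58 with an adjusted p of 0.00152. SLPI, a related secreted inhibitor, was 6.88-fold higher from a parental mean of 36.4 CPM. The serpins SERPINB3 and SERPINB4 were each 176-fold higher, and their sum had a log2 fold change of 7.52 ± 1.04 with an adjusted p of 0.00381. That sum stood at 2.60 to 3.33 CPM in the parental libraries and at 252, 1200 and 135 CPM in R069, R072 and R075 thymus.

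All 4 S100 proteins, small calcium-binding proteins of stressed and differentiating epithelium, were higher, S100A7 and S100A12 among genes that passed the filter on low counts only through the lines. S100A8 stood at 0.436, 1.03 and 0.548 CPM in the parental libraries and at 401, 2220 and 241 CPM in R069, R072 and R075 thymus, a log2 fold change of 10.53 ± 1.28 with an adjusted p of 0.00288. Its partner S100A9 stood at 18.5 to 21.9 CPM against 422, 1738 and 340 CPM, with an adjusted p of 0.00419. Since these S100 genes are also abundant in neutrophils, myeloid markers were examined beside them. The 10 haematopoietic and myeloid markers summed to 26.6 to 29.7 CPM in the parental libraries and 7.34 to 22.9 CPM in the deeper lines. Of the 10, 2 reached a mean of 1 CPM in each of these groups, so the sums rest on few genes. ELANE was at 0 counts in both groups, MPO had 1 parental count and 0 in the deeper lines, and FCGR3B had 0 parental counts and 1 in R069. The low-depth library R071 held 3 counts of MPO. The 8 fibroblast and stromal markers summed to 11.3 to 11.7 CPM in the parental libraries and 49.3 to 70.4 CPM in the deeper lines, and COL1A1 made up most of both sums, with 10.5 to 10.7 CPM and 46.6 to 67.7 CPM. Of the 8, 2 were tested and 1 (COL1A1) was higher. COL3A1, DCN and PDGFRA were at 0 counts in the parental libraries and none was at 0 in all of the deeper lines, and the part of these markers in the result was not tested. Blood or stromal cells carried over from the mice would be mouse cells. Counts on human genes are not made to measure those, so neither set of markers can decide whether any were present.

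Both regulators were higher. Of the 5 late secreted genes DMKN alone passed the filter on low counts without the lines, so the calls of SBSN, KRTDAP, CALML5 and CASP14 rest on genes let in by their high level there. SBSN, the suprabasin of the suprabasal layers, stood at 0.0623 to 0.156 CPM in the parental libraries and at 214, 424 and 48.6 CPM in R069, R072 and R075 thymus, a log2 fold change of 10.93 ± 1.13 with an adjusted p of 0.00210. KRTDAP, the keratinocyte differentiation-associated protein, had 5 counts in the parental group and 47.2, 263 and 39.2 CPM in the lines. Its pooled ratio was 1538 (95% counting interval 658 to 4737). CASP14, a caspase that processes filaggrin, had 0 counts in the parental group and 2.55, 15.6 and 4.72 CPM in the lines, at least 237.5-fold higher against the floor. CALML5, a calmodulin-like protein of keratinocytes, had 1 count in the parental group and 10.7, 42.7 and 1.70 CPM in the lines. Its pooled ratio was 1199 (95% counting interval 215 to 47388). DMKN, the dermokine that was abundant in every group, differed least of the called genes, at 87.3 to 90.9 CPM against 226, 337 and 101 CPM, with a log2 fold change of 1.37 ± 0.43 and an adjusted p of 0.0468. GRHL3 was 12.3-fold and ZNF750 28.0-fold higher.

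**Figure D2:**
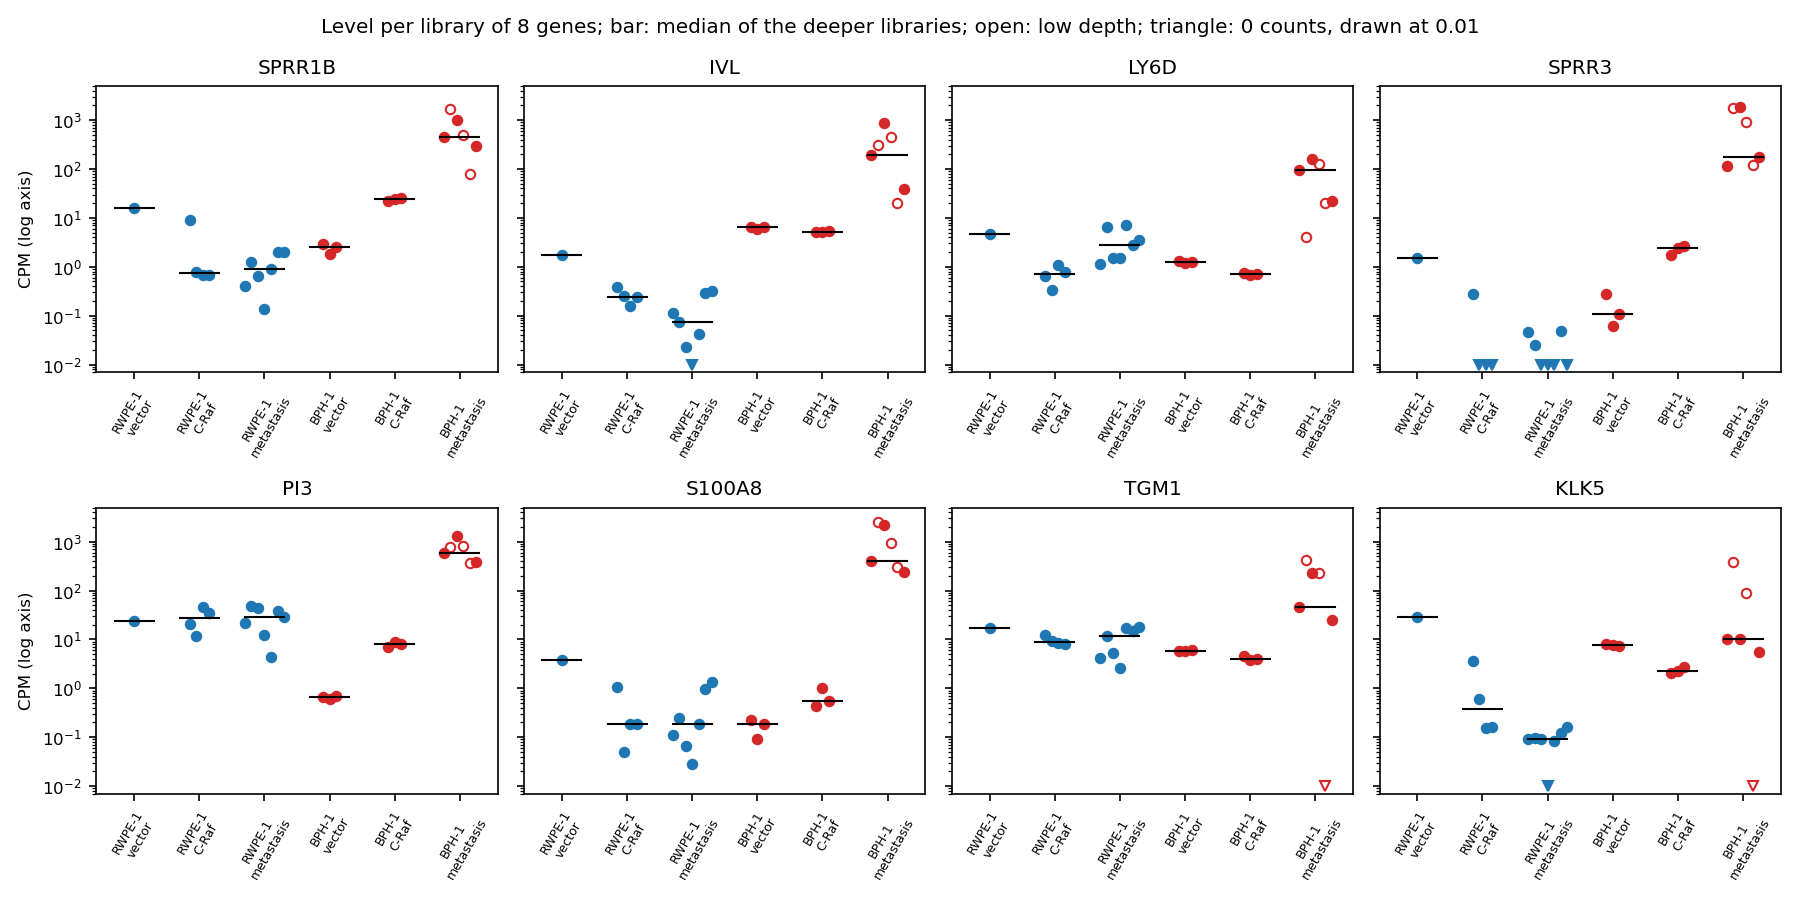
CPM on a log axis of 8 of the genes in every library, by group, with a bar at the median of the deeper libraries, open symbols for low-depth libraries and triangles for 0 counts. The deeper BPH-1 metastasis-derived libraries sit apart above the other groups for SPRR1B (291 to 1021 CPM) and IVL (39.7 to 884 CPM), and LY6D is the gene whose RWPE-1 metastasis-derived libraries (1.16 to 7.33 CPM) also lie above their parental ones (0.329 to 1.07 CPM).

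The 3 deeper lines were unequal. R072 had the highest level for 41 of the 46 genes, R069 for 4 and R075 thymus for 1, whereas over all genes tested 40.0% were highest in R072, 20.9% in R069 and 39.0% in R075 thymus. The order R072, R069, R075 thymus held for 36 of the 46. The share of RN7SL1 ran in that order too (30.3%, 13.1% and 4.60%), and the share of protein-coding counts in the opposite one (38.9%, 70.0% and 83.7%), and their part in the order of the genes was not tested. The highest line stood 1.23 to 103 times above the lowest, with a median of 6.27 times. Leaving out R072 lowered the log2 fold changes to 3.98 for SPRR1B, 4.49 for IVL, 6.396 for LY6D, 6.03 for SPRR3, 8.93 for S100A8, 7.30 for SPINK5, 10.12 for SBSN and 9.30 for TGM3, all still past the threshold. The fitted values of genes with 0 to 5 parental counts also moved, from 12.62 to 11.83 for DSG1, from 11.67 to 10.86 for SPRR2G, from 11.03 to 9.59 for KRTDAP, from 10.94 to 9.89 for CDSN, from 10.74 to 9.81 for CASP14, from 10.29 to 8.76 for CALML5 and from 8.78 to 7.05 for LOR, and they depend on the prior count. Leaving out C-Raf parental 1 took CALML5 to 11.95 with an adjusted p of 0.0540, and leaving out C-Raf parental 3 took LOR to 10.49 with an adjusted p of 0.0529 and DSG1 to 14.31 with an adjusted p of 0.0325.

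In the low-depth libraries a single count stands for 4.13 CPM (R071), 8.01 CPM (R074) or 20.2 CPM (R075 titled bone), which is above every parental level for 29, 34 and 38 of the 46 genes, so that any count places those genes above and the shares of all genes are no like comparison. R071 had 5072 counts on the 46 genes and stood above all 3 parental libraries for 41 of them, against 26.7% of all genes tested. R074 had 1452 counts and stood above for 43, against 29.9%. The library titled bone R075 had 123 counts, stood above for 25, against 18.2%, and was at 0 counts for 18. Of the genes whose parental level exceeds 1 count, R071 stood above for 16 of 17, R074 for 12 of 12 and R075 titled bone for 5 of 8. With all 6 lines in the fit, 41 genes were higher, of which 40 were also called with 3 lines. The share of all genes called in that fit is not given here, so the 41 have no background beside them. DMKN and DSC3 were then not called (adjusted p 0.269 and 0.104), S100A12 did not pass the filter on low counts and was not tested, and FLG was called.

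Compared per kilobase of exon, so that genes can be ranked against each other, the leading genes changed between stages. In BPH-1 C-Raf parental cells the highest levels were SLPI with 61.1, SPRR1B with 38.9 and, after S100A9, KLK10 with 26.3 CPM per kilobase. In the deeper metastasis-derived lines the highest means were S100A9 with 1444, PI3 with 1305, S100A8 with 949 and SPRR1B with 948 CPM per kilobase. In R069 and R075 thymus, PI3 stood above S100A9 and SPRR1B above S100A8, so the order within each pair rests on R072. S100A8 had stood at 1.03 CPM or less in every parental library.

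Other genes of squamous differentiation, from a list of 69 that shares no gene with the 46, were examined in the same fit. That list too was chosen with earlier results of these data known. Of these, 58 were tested, 41 were higher, 1 (PKP2, a plakophilin of simple and cardiac junctions) was lower, and their median log2 fold change was 2.87, against 20.9% higher and 16.8% lower of all genes. The filter on low counts was passed without the lines by 45 of the 58, of which 29 were higher and 1 lower, with a median of 2.30. The other 13 passed it only through the lines, KRT1, CERS3, CRNN, CYP4F22, DSG4 and RPTN among them, which favours a higher value, and 12 of the 13 were higher. Higher were 9 of 10 keratins, 7 of 9 barrier lipid genes, 5 of 9 desmosome genes, 9 of 14 regulators and 11 of 16 other envelope genes tested. KRT1, the keratin of the suprabasal epidermis, had 2 counts in the parental group and 168, 422 and 30.7 CPM in R069, R072 and R075 thymus. CERS3, a ceramide synthase of the skin barrier, had 0 parental counts and 27.4, 51.3 and 10.0 CPM. CRNN, the cornulin of esophageal lining, stood at 0.125 to 0.187 CPM against 14.99, 390.2 and 20.1 CPM, a log2 fold change of 9.91 ± 1.85 with an adjusted p of 0.00919, or 6.86 without R072. CYP4F22 had 0 parental counts and stood at 4.74, 17.0 and 1.49 CPM in the lines, DSG4 had 1 parental count and stood at 8.53, 17.0 and 2.81 CPM, and RPTN stood at 0 to 0.0935 CPM against 13.1, 74.1 and 4.69 CPM. Without R069 the adjusted p of CYP4F22 rose from 0.0156 to 0.0606.

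The second comparison asks what C-Raf overexpression did within BPH-1, before passage through mice, and here the list split. Of 31 genes tested among 13221, 16 rose and 8 fell from vector control to C-Raf parental libraries, and 7 were not called, against 30.4% higher and 29.4% lower of all genes tested. In either direction 77.4% of the genes were called, against 59.8% of all genes. The median log2 fold change was 0.17 over the list and -0.00 over all genes. Of the 31, 6 (SPRR1A, SPRR2A, SPRR2E, SPRR3, SPINK5 and S100A8) were too low in vector control and entered through the C-Raf parental libraries, which favours a rise. Among the 25 that pass in the vector control libraries, 10 rose and 8 fell, with a median of 0.03. The 6 libraries varied little, with a biological coefficient of variation of 2.43%, so that small differences passed the test.

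Of the genes with the largest rises, several were small proline-rich proteins and inhibitors. SPRR1B went from 2.91, 1.85 and 2.49 CPM in vector control 1 to 3 to 22.5, 24.4 and 25.5 CPM in C-Raf parental 1 to 3, a 9.72-fold rise with a log2 fold change of 3.28 ± 0.09 and an adjusted p of 4.83e-22. The groups did not overlap. PI3 went from 0.663, 0.606 and 0.690 CPM to 6.89, 8.66 and 7.95 CPM, an 11.7-fold rise with a log2 fold change of 3.55 ± 0.15 and an adjusted p of 4.27e-18. SLPI went from 11.1, 13.9 and 13.4 CPM to 38.4, 36.1 and 34.8 CPM, a 2.82-fold rise. The serpins went the other way without passing singly (-0.30 ± 0.15 for SERPINB3 and -0.45 ± 0.25 for SERPINB4), and their sum decreased by 0.33 ± 0.13 with an adjusted p of 0.0353. All 5 small proline-rich genes tested rose, from 6.77-fold in SPRR1A to 14.1-fold in SPRR3, of which only SPRR1B passes the filter in vector control, while SPRR2D, SPRR2F and SPRR2G were too low to test. SPINK5, TGM5, S100A8, S100A9, KLK10, KLK11, DSC3, FLG and GRHL3 also rose, GRHL3 from 6.91 to 7.53 CPM up to 12.03 to 12.7 CPM. FLG, DSC3, KLK10 and S100A9 rose by 1.10-, 1.12-, 1.16- and 1.22-fold, and KLK11 by 1.32-fold from 4.15 to 4.77 CPM up to 5.52 to 6.17 CPM.

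Other genes of the list fell. KLK5, a protease that activates other kallikreins, went from 8.14, 7.55 and 7.45 CPM in vector control to 2.06, 2.30 and 2.67 CPM in C-Raf parental libraries, and decreased by 1.74 ± 0.11 on the log2 scale with an adjusted p of 6.61e-14. KLK6 went from 7.99, 7.61 and 7.14 CPM to 4.11, 4.08 and 3.43 CPM and KLK7 from 8.78, 10.4 and 9.87 CPM to 6.70, 6.07 and 7.26 CPM, without overlap. LY6D fell from 1.30, 1.21 and 1.25 CPM to 0.748, 0.685 and 0.720 CPM, a decrease by 0.82 ± 0.22 on the log2 scale with an adjusted p of 0.00181. IVL fell from 5.97 to 6.58 CPM to 5.14 to 5.45 CPM, a decrease by 0.29 ± 0.09 with an adjusted p of 0.00823. TGM1, CNFN and LYPD3 fell as well, TGM1 by 0.53 ± 0.10 and LYPD3 by 0.22 ± 0.06. The call of CNFN (adjusted p 0.0242) was lost with DESeq2 (0.0694). So SPRR1B rose with C-Raf while IVL and LY6D fell, and all of them were higher in the deeper metastasis-derived lines than in C-Raf parental cells.

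**Figure D3:**
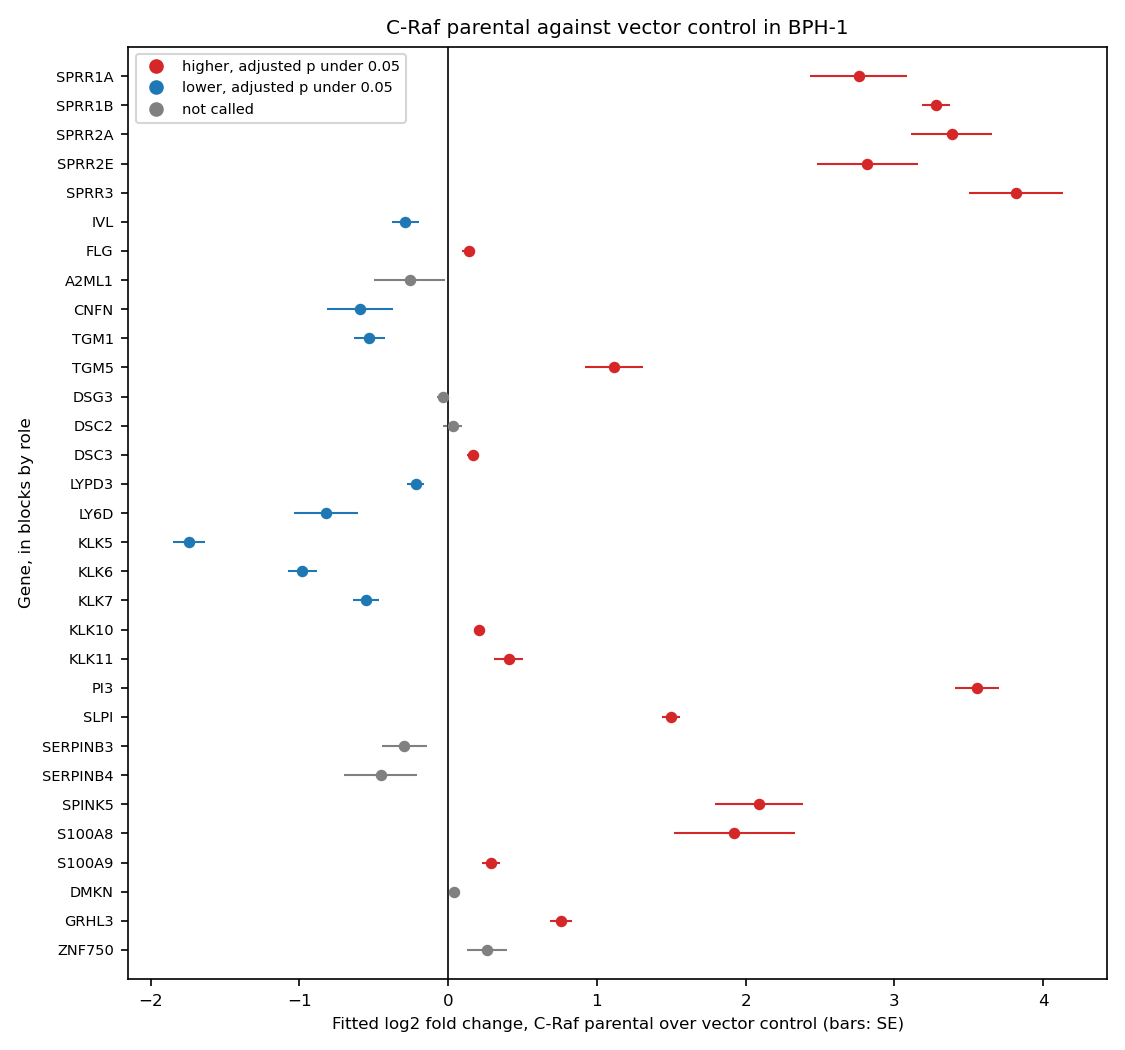
Fitted log2 fold change, C-Raf parental over vector control in BPH-1, with standard errors as bars, for the genes tested, in blocks by role (red higher, blue lower, grey not called). Small proline-rich proteins and PI3 stand furthest to the right (3.82 for SPRR3, 3.55 for PI3) and KLK5 furthest to the left (-1.74).

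Of the 69 other squamous genes, 49 were tested in this comparison, 21 rose and 16 fell, against 30.4% rising and 29.4% falling of all genes. The stress keratin KRT6A rose from 87.2 to 450.3 CPM on average, and SCEL (sciellin, an envelope precursor), S100A14, the basal keratin KRT14 and S100A2 rose by 1.39, 1.34, 1.03 and 0.75 on the log2 scale. ELF3, an ETS factor of epithelial differentiation, went from 56.1 to 16.5 CPM and decreased by 1.79 ± 0.04. Of 7 barrier lipid genes tested, 6 fell and 0 rose.

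The same question in RWPE-1 rests on 1 vector control library, so its values are given without a test. Of the genes, 27 reached 1 CPM in at least 1 of the 5 libraries compared. For 23 of these the vector control stood above all 4 C-Raf parental libraries, against 32.5% of the 12221 genes at that level, and for 2 (SLPI and DMKN) below all 4, against 28.3%. Of the 27, 8 reached 1 CPM in the vector control alone and had to stand above. Among the 19 that reached it in a C-Raf parental library, the vector control stood above for 15, against 32.1% of the 12152 genes chosen in that way. SPRR1B stood at 15.7 CPM in vector control, at 9.27 CPM in C-Raf parental 1 and at 0.784, 0.682 and 0.691 CPM in C-Raf parental 2 to 4. KLK5 stood at 29.1 CPM, then 3.57 CPM, then 0.607, 0.157 and 0.159 CPM, and KLK10 at 46.6 CPM, then 8.88 CPM, then 1.49, 2.65 and 1.67 CPM. A2ML1 is a protease inhibitor of granular cells, counted here by role with the envelope precursors. It stood at 8.85 CPM, then 2.64 CPM, then 0.278, 0.262 and 0.292 CPM. This order, vector control above C-Raf parental 1 above parental 2 to 4, held for 17 of the 27 genes, against 22.5% of the genes at that level, and for 9 of the 19 genes that reached 1 CPM in a C-Raf parental library, against 22.3% of the 12152 genes. Vector control and parental 1 stand in 1 table and C-Raf parental 2 to 4 in another, and the part of the table in that order was not tested. IVL stood at 1.75 CPM in vector control and 0.157 to 0.393 CPM in C-Raf parental libraries, and LY6D at 4.78 CPM and 0.329 to 1.07 CPM. SLPI ran the other way, from 8.59 CPM in vector control to 12.3 CPM and then 17.0, 56.3 and 56.2 CPM.

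**Figure D4:**
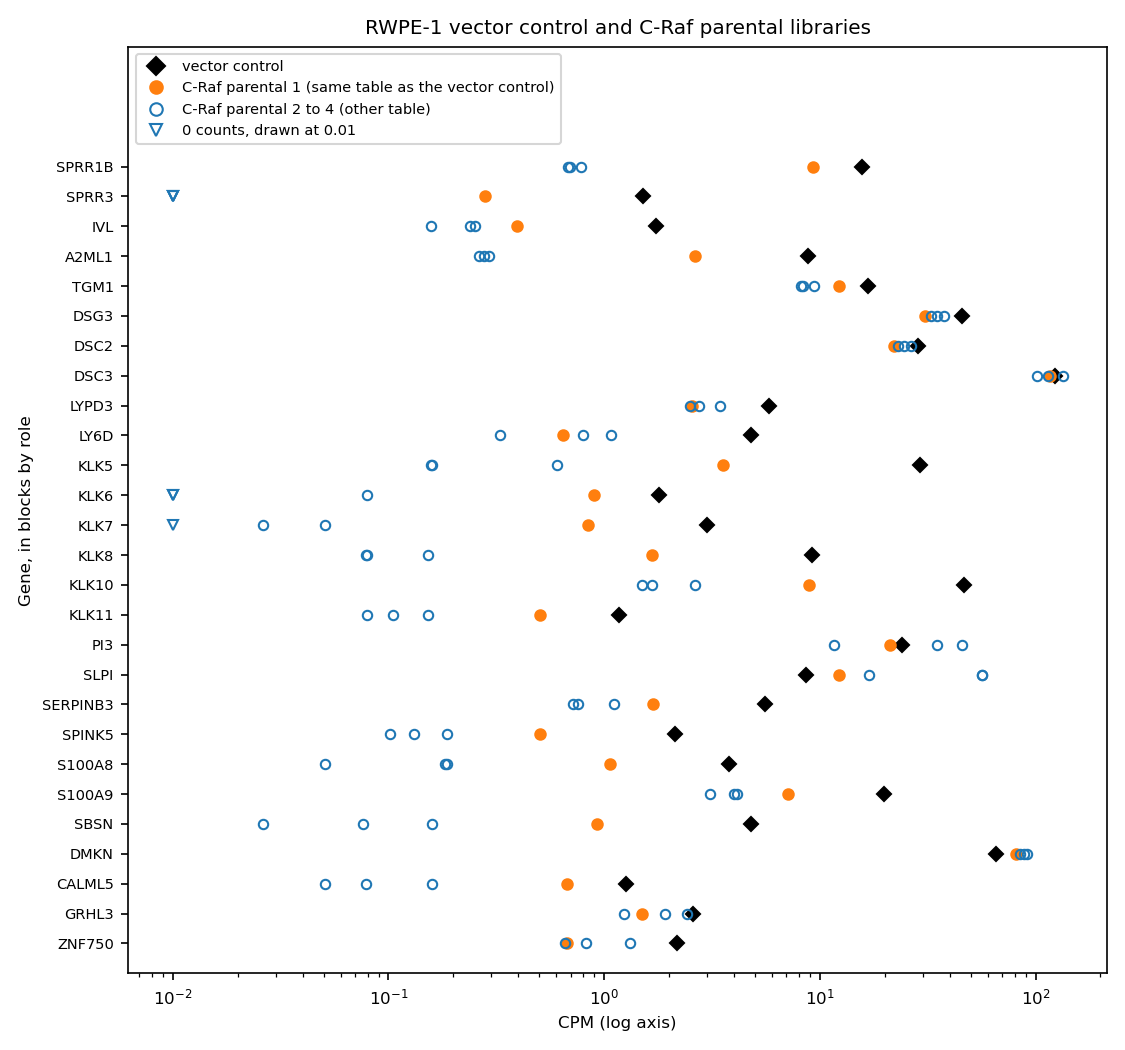
CPM on a log axis in the RWPE-1 vector control and the 4 C-Raf parental libraries for the genes that reached 1 CPM in at least 1 of them, 27 in all. The vector control point lies to the right of all parental points for 23 genes, and C-Raf parental 1 lies between it and the other parental libraries for 17.

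In RWPE-1 the metastasis-derived lines did not show the pattern of BPH-1. Of 24 genes tested among 13178, edgeR called 0 higher and 0 lower than in C-Raf parental libraries, against 0.0759% and 0.0228% of all genes. DESeq2 called 1, LY6D, and its share of all genes is not given here. At an unadjusted p below 0.05, edgeR gave 4 genes, LY6D and FLG with higher and DSC2 and LYPD3 with lower levels, against 7.86% of all genes. The median log2 fold change was -0.14 over the 24 and 0.01 over all genes. The other 22 genes did not pass the filter on low counts, among them LOR, DSG1 and SPRR2F. KLK5 is one of these, with 3.57 and 0.607 CPM in C-Raf parental 1 and 2, 0.157 and 0.159 CPM in 3 and 4, and 0 to 0.16 CPM in the lines.

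LY6D was the 1 gene whose RWPE-1 groups did not overlap and were higher, against 0.675% of all genes, and 0 were lower without overlap, against 1.04%. It stood at 0.646, 0.329, 1.07 and 0.797 CPM in C-Raf parental 1 to 4 and at 1.16 CPM (lowest), 2.77 CPM (median) and 7.33 CPM (highest) in the 7 lines. Its log2 fold change was 2.28 ± 0.59 with an edgeR adjusted p of 0.273, and with DESeq2 2.28 with an adjusted p of 0.00505. Within the second table alone, with 3 parental libraries and 4 lines, it was 2.35 ± 0.62 with an adjusted p of 0.347. SPRR1B stood at 9.27 CPM in C-Raf parental 1 and at most at 0.784 CPM in the other 3, and at 0.140, 0.903 and 1.99 CPM (lowest, median and highest) in the lines. Its log2 fold change of -1.44 ± 0.80 (adjusted p 0.705) turned to 0.54 without C-Raf parental 1 and to 0.80 within the second table. IVL stood at 0.157 to 0.393 CPM and at 0, 0.0736 and 0.319 CPM in the lines, with a log2 fold change of -1.05 ± 0.71 and an adjusted p of 0.76. DSC3, with 102 to 133 CPM in parental libraries and 90.2 to 179.7 CPM in the lines, had a log2 fold change of 0.02 ± 0.18. Per kilobase of exon, SLPI with 52.6 and PI3 with 48.9 CPM per kilobase led the metastasis-derived lines.

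The difference between the cell lines was then tested itself, as the metastasis effect in BPH-1 minus that in RWPE-1 in 1 model of 17 libraries. The effect was larger in BPH-1 for 35 of the 46 genes and smaller for 0, against 23.5% and 21.0% of 14259 genes, with a median difference of 6.36 on the log2 scale against 0.05 over all genes. Of the 46, 13 passed the filter on low counts through the BPH-1 metastasis-derived libraries, which favours a larger effect in BPH-1. Among the other 33, 29 were larger and 0 smaller, with a median of 6.04. The fit uses the same libraries as the comparisons above and is not independent of them. The difference was 6.04 ± 1.17 for SPRR1B (adjusted p 0.000649), 7.17 ± 1.34 for IVL (0.000485) and 4.72 ± 0.98 for LY6D (0.00107). Without R072 these were 5.38, 5.50 and 4.09, all still past the threshold. Without RWPE-1 C-Raf parental 1, which had the higher SPRR1B level, the SPRR1B difference was 4.08 with an adjusted p of 0.00102. Without that library the SPRR3 difference fell from 10.09 to 5.78 with an adjusted p of 0.99, and those of KRTDAP and SPRR2G lost significance (0.144 and 1.00), while the number of genes called was 29.

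By role, and among the 33 genes alone, the difference passed for 5 of 5 inhibitors, both regulators, 6 of 6 adhesion genes, 5 of 6 small proline-rich proteins, 4 of 5 kallikreins, 3 of 4 envelope precursors, both S100 proteins, 1 of 2 transglutaminases and DMKN, the 1 late secreted gene left. Of the 13 let in by the BPH-1 metastasis-derived libraries, 6 passed (SPRR2G, KLK8, SBSN, KRTDAP, CALML5 and CASP14). Among genes well expressed in both cell lines, DSC2 differed by 5.63 ± 0.35 with an adjusted p of 5.40e-08. It stood at 16.1 to 18.1 CPM in BPH-1 parental and 346 to 997 CPM in the deeper BPH-1 lines, and at 22.0 to 26.5 CPM in RWPE-1 parental and 14.9 to 22.9 CPM in RWPE-1 lines. KLK6, whose level overlapped between stages in BPH-1, passed with 3.66 ± 1.42 and an adjusted p of 0.0459. Its fitted change in BPH-1 was -0.14. In RWPE-1 it stood at 0.899 CPM in C-Raf parental 1 and at 0 to 0.0797 CPM in parental 2 to 4. The RWPE-1 lines, at 0 to 0.0456 CPM, overlapped parental 2 to 4. Among the RWPE-1 libraries C-Raf parental 1 thus stood apart, and the KLK6 difference without it is not given here. The 11 genes not called were SPRR2E, SPRR2F, LOR, FLG, TGM3, TGM5, DSG1, KLK10, KLK13, S100A7 and S100A12, most of them at or near 0 in RWPE-1. DESeq2 called 7 of these as well (DSG1, KLK13, S100A7, S100A12, SPRR2E, TGM3 and TGM5), a count without its share of all genes. For KLK5, called by edgeR, it gave a difference of 5.56 and no p-value.

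**Figure D5:**
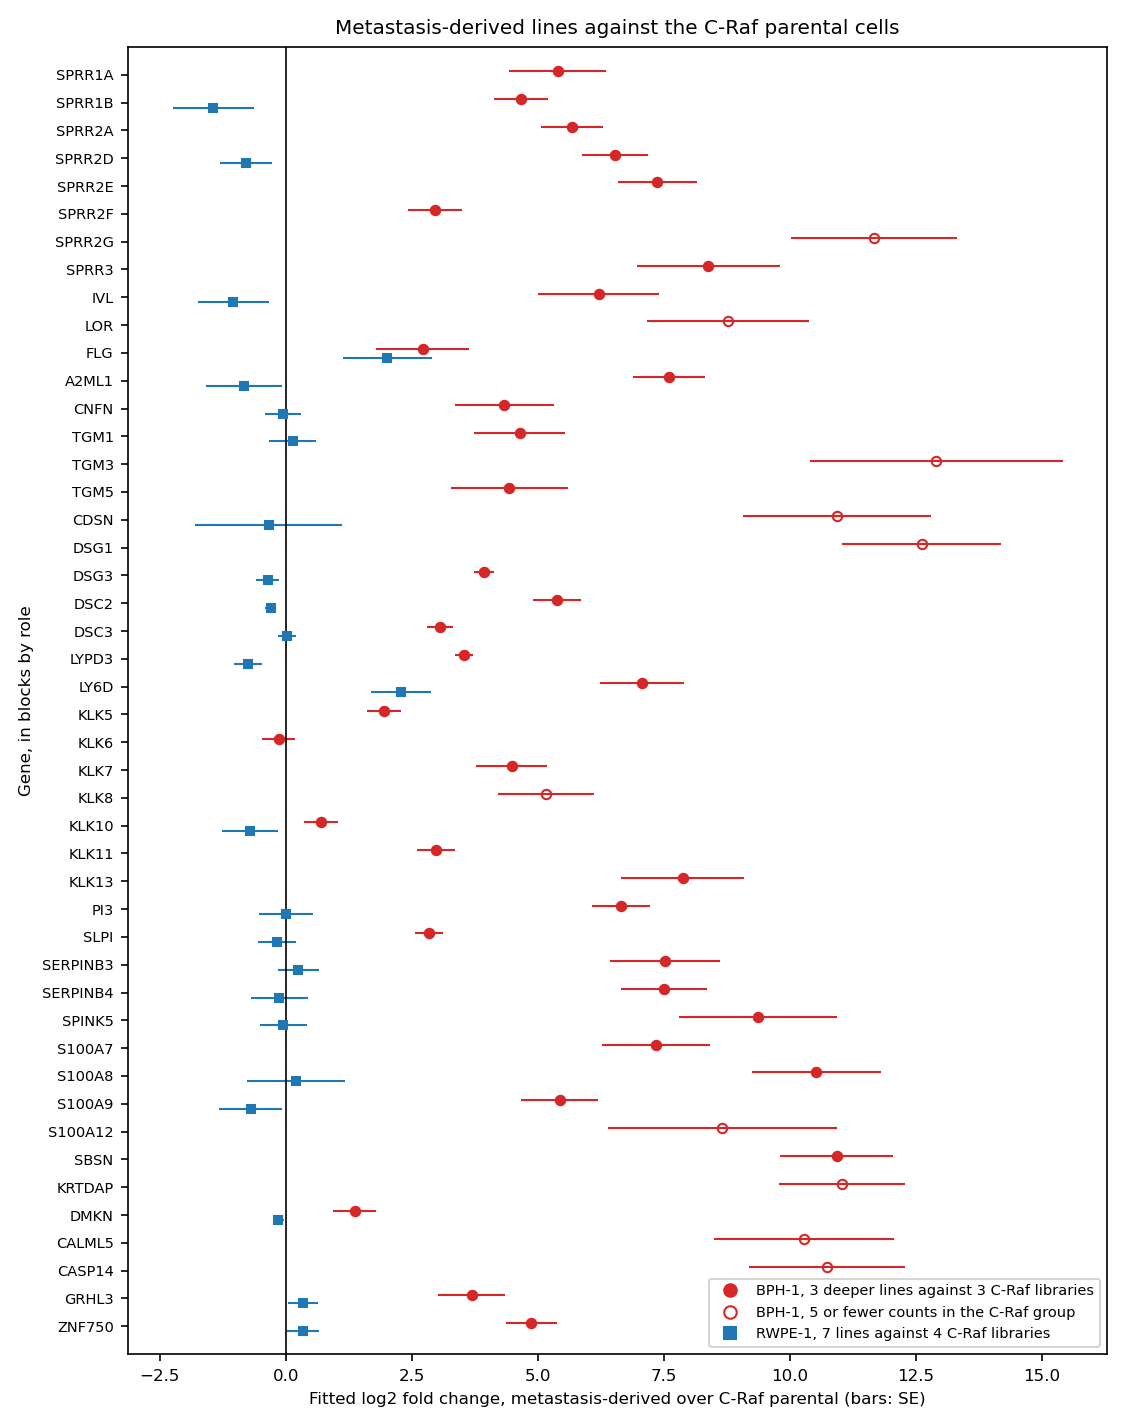
Fitted log2 fold change, metastasis-derived over C-Raf parental, for each of the 46 genes in BPH-1 (circles, open for 5 or fewer counts in the parental group) and, where tested, in RWPE-1 (squares), with standard errors as bars. The BPH-1 points lie right of 0 except KLK6 (-0.14), and the RWPE-1 points lie around 0, with LY6D at 2.28, FLG at 2.01 and SPRR1B at -1.44 furthest out.

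At the C-Raf parental stage the listed genes differed between the cell lines about as often as genes in general. By edgeR, 25 of the 32 tested had an unadjusted p below 0.05, against 75.8% of all genes. Of 32 genes tested among 13521, 21 were lower and 4 higher in RWPE-1 than in BPH-1, against 36.0% and 38.0% of all genes tested, with cell line, medium and table confounded. Of the 32, 16 were too low in RWPE-1 to pass there, entered through the BPH-1 libraries, which favours a lower value, and 13 of these were called, FLG, IVL, KLK7 and KLK11 among them. Among the 16 that pass in RWPE-1, 8 were lower and 4 higher. FLG was at 60.7 to 71.1 CPM in BPH-1 and 0.101 to 0.345 CPM in RWPE-1, lower by a log2 fold change of -8.29 ± 0.24 (adjusted p 3.11e-07). IVL had a log2 fold change of -4.32 ± 0.26, LYPD3 of -2.33 ± 0.13, GRHL3 of -2.80 ± 0.22 and S100A9 of -2.14 ± 0.26. SPRR1B had -3.09 ± 0.92, KLK10 -4.80 ± 0.59, KLK11 -4.81 ± 0.50 and KLK7 -4.88 ± 0.95, and without RWPE-1 C-Raf parental 1 these were -5.06, -5.71, -5.67 and -7.82. PI3 (1.86 ± 0.45), TGM1 (1.21 ± 0.17), DSC3 (0.98 ± 0.09) and DSC2 (0.49 ± 0.09) were higher in RWPE-1. LY6D did not pass, with -0.01 ± 0.38 and an adjusted p of 0.983, and its sign changed when RWPE-1 C-Raf parental 1 or 2 or BPH-1 C-Raf parental 1 was left out.

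Of the other squamous genes, 48 were tested between the parental cells, 15 were higher and 17 lower in RWPE-1, against the 38.0% and 36.0% of all genes given above, so that the counts are near the background. KRT14 (304 CPM in BPH-1 and 2299 CPM in RWPE-1 on average) and KRT6B were among the higher, and EHF, OVOL1, SCEL and KRT13 among the lower. KRT13, a keratin of non-cornifying lining, had a log2 fold change of -8.14 ± 1.10, or -11.46 without RWPE-1 C-Raf parental 1, and SCEL of -3.19 ± 0.80, or -4.75 without it.

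With both cell lines in 1 model of 24 libraries and a term for cell line, the 3 low-depth libraries included, fewer genes passed. Between C-Raf parental and vector control edgeR called 0 of 46 in either direction, against 0.0914% higher and 0.150% lower of 15321 genes. At an unadjusted p below 0.05 edgeR gave 5, against 6.04% of all genes. DESeq2 called 2 (SLPI and SPRR2G), and its share of all genes is not given here. For SPRR2G, at 0 to 3 counts in each vector control and C-Raf parental group, DESeq2 gave a log2 fold change of 11.27 and edgeR -0.47, and neither value is interpretable. Between metastasis-derived and parental libraries 11 were higher and 0 lower, against 1.94% and 0.535% of all genes. The genes called were SPRR2E, SPRR2F, SPRR2G, LOR, FLG, TGM3, DSG1, KLK13, S100A7, KRTDAP and LY6D. Of these, 7 (SPRR2F, SPRR2G, LOR, TGM3, DSG1, KLK13 and KRTDAP) passed the filter on low counts only through the BPH-1 metastasis-derived libraries. Of the 37 genes that passed it without them, 4 (SPRR2E, FLG, S100A7 and LY6D) were higher. DESeq2 called 14, of which 6 (SPRR2E, SPRR2F, FLG, KLK13, S100A7 and LY6D) are shared. The 1.94% above is edgeR's, and the share of all genes called by DESeq2 is not given here. DESeq2 gave LOR 2.43, DSG1 3.13, TGM3 3.82 and KRTDAP 2.89 without passing, against edgeR's 11.06, 11.71, 10.60 and 8.67. For SPRR2G it gave -0.28, against 11.64 in edgeR. The edgeR sizes also moved with single libraries, since SPRR2G was 9.22 and LOR 8.45 without R071, SPRR2G 13.06 without RWPE-1 C-Raf parental 1 and TGM3 7.49 without R072. When any 1 of the BPH-1 C-Raf parental libraries was left out, the same 7 genes (SPRR2F, LOR, FLG, TGM3, S100A7, KRTDAP and LY6D) were not called and 4 (SPRR2E, SPRR2G, DSG1 and KLK13) remained. Single calls were also lost for KRTDAP without R072 (adjusted p 0.0626), LOR without R074 (0.0522), FLG without the RWPE-1 lymph node library LN1B (0.0569) and SPRR2F without LN1A. LY6D had a log2 fold change of 4.29 ± 0.95 and an adjusted p of 0.0138. Without each of those parental libraries in turn, that p was 0.0677 to 0.0695. SPRR1B (1.498 ± 1.61, adjusted p 0.565) and IVL (2.94 ± 1.49, adjusted p 0.234) did not pass.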

How the data were processed

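RNA was extracted from cultured cells and sequenced from messenger RNA libraries. The authors deposited 4 tables of expected counts, the estimated reads per gene from RSEM. The submitters' processing notes name cutadapt, FastQC, STAR, RSEM and the build hg38 without versions. The annotation release was not given in the sources used here. The tables stand before any batch correction.

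Expected counts, of which 9.85% of values were not whole, were rounded. Gene types came from GENCODE version 29, in which 36628 of the 60448 symbols were found directly and 850 by an older name, and tests and levels used protein-coding genes. All columns were assigned to samples by name. Tests were edgeR 4.0.16 quasi-likelihood fits in R 4.3.3 (limma 3.58.1) with TMM scaling, edgeR's default filter on low counts and Benjamini-Hochberg adjustment over all genes tested, at an adjusted p below 0.05. Fold changes are on the log2 scale with a prior count of 2, and counting intervals and the floor of 3 counts cover counting error only. Protein-coding depth was 20564794 to 41985563 counts in 21 libraries, so that 3 counts over the BPH-1 C-Raf parental group are 0.0321 CPM. The lowest chi-square per gene between libraries of a group was 1.68, and no library was merged with another.

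Alternatives were DESeq2 1.42.0, RLE scaling, no filter, each library left out in turn, the replicate number as a block, all 6 BPH-1 lines, the RWPE-1 tables, summed near copies and all genes as the denominator. Shares of all genes called are those of the main edgeR fits, and counts from the alternatives are given without such a share. Promoters came from RefSeq on GRCh38.p14. Other steps used Python 3.11.15, pandas 2.3.3, numpy 2.4.6, scipy 1.17.1 and matplotlib 3.10.9, and the tests were tried on simulated data. Genes named by rule were SPRR1B, IVL and LY6D and, per comparison, up to 12 called members with at least 5 CPM in a group, by size of fold change, with up to 6 other squamous genes by the same rule. Further genes were named as examples of their role after their values were seen. The members and lists were chosen with earlier results of these data known. Some items are not reported here.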

Additional observations from a re-analysis of the deposited data

Results flagged for a closer look

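Among the 6 BPH-1 metastasis-derived libraries, the library titled bone R075 lay far below the others for 4 genes, A2ML1, TGM1, KLK11 and SERPINB4, each at -3.98 log2 CPM, the value that 0 counts give. It is the library with the fewest protein-coding counts (111162). These are 4 of 44 groups examined, and chance flags about 1 in 20 groups. All 4 flags come from 1 library at 0 counts, so they are not separate draws and cannot be set against that rate.

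The metastasis effect differed between the cell lines, by the test of the difference itself, for the genes named by rule. All but SPRR1B, IVL and LY6D were named because they were called there with the largest differences, so their passing says nothing more. On the log2 scale, BPH-1 minus RWPE-1, the differences were 13.56 for SPRR2G, 13.17 for CALML5, 11.96 for SBSN, 11.89 for KRTDAP, 11.69 for CASP14, 11.62 for CDSN, 10.24 for S100A8, 10.09 for SPRR3, 9.34 for SPINK5, 8.36 for A2ML1, 7.57 for SERPINB4, 7.33 for KLK8, 7.17 for IVL, 6.04 for SPRR1B and 4.72 for LY6D. SPRR2G, CDSN and CASP14 had 0 counts in BPH-1 C-Raf parental libraries and CALML5 had 1, so their fitted sizes depend on the prior count.

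Single libraries set part of these sizes. Without R072 the differences were 12.74 for SPRR2G, 11.66 for CALML5, 11.18 for SBSN, 10.49 for KRTDAP, 10.72 for CASP14, 10.54 for CDSN, 8.68 for S100A8, 7.80 for SPRR3, 7.30 for SPINK5, 7.60 for A2ML1, 6.61 for SERPINB4 and 6.71 for KLK8. Without RWPE-1 C-Raf parental 1 they were 12.04 for SPRR2G, 11.91 for CALML5, 10.28 for SBSN, 9.68 for KRTDAP, 10.45 for CDSN, 8.90 for S100A8, 5.78 for SPRR3, 8.66 for SPINK5, 6.77 for A2ML1 and 5.15 for KLK8.
Without that library SPRR2G, KRTDAP and SPRR3 did not pass. Leaving out BPH-1 C-Raf parental 1 gave 15.19 for CALML5 and 8.17 for KLK8, leaving out the RWPE-1 line Spine2 gave 12.89 for CDSN, and leaving out the RWPE-1 line Bone6 gave 10.91 for S100A8, all past the threshold.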

How the results depend on the processing

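The comparisons within BPH-1 and between the cell lines kept their direction and stayed within 1.5 times their counts under every alternative run. The replicate number as a block gave 16 higher and 8 lower genes between BPH-1 C-Raf parental and vector control, the same counts as without it, and same-numbered libraries did not deviate together (r = 0.0452, -0.0464 and -0.0379), so the numbers were not taken as pairs. With each library left out, that comparison gave 15 to 17 higher and 7 to 9 lower, the BPH-1 metastasis comparison 34 to 44 higher (34 without C-Raf parental 2) and 0 lower, the RWPE-1 metastasis comparison 0, the difference between cell lines 29 to 37 larger and 0 smaller in BPH-1, and the parental comparison 4 higher and 19 to 24 lower. DESeq2 called 1 gene in the RWPE-1 metastasis comparison where edgeR called 0. Pooled over cell lines, DESeq2 called 2 genes between C-Raf parental and vector control where edgeR called 0, and leaving out libraries gave 0 to 1, the 1 without the RWPE-1 vector control. The pooled metastasis comparison gave 4 to 15 higher, with 4 without any BPH-1 C-Raf parental library and 15 without the RWPE-1 vector control. With all genes as the denominator, the share of counts was 0.0596% in BPH-1 C-Raf parental, 0.0529% in BPH-1 vector control, 0.0497% in RWPE-1 vector control and 0.461% (against 0.815% of protein-coding counts) in the deeper BPH-1 metastasis-derived lines, and the 3 low-depth lines fell below the parental libraries.

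Signs changed for values that had not passed, and for 1 that had. RWPE-1 metastasis SPRR1B was 0.80 within the second table and -1.77 to 0.54 with 1 library left out, positive without C-Raf parental 1. Parental LY6D ranged from -0.28 to 0.23, with 0.03, 0.23 and 0.01 without RWPE-1 C-Raf parental 1, 2 and BPH-1 C-Raf parental 1. Pooled over cell lines and between C-Raf parental and vector control, leaving out 1 library gave -3.15 to 7.41 for SPRR1B, -2.31 to 3.29 for IVL and -1.97 to 1.60 for LY6D, each positive value without the RWPE-1 vector control. The pooled SPRR2G metastasis value, called by edgeR, was -0.28 with DESeq2. The cause was not tested. Among the single genes, 1640 values kept their side, 54 lost significance and 1 gained it. Depth limits the 3 libraries that 93.3% to 97.5% RN7SL1 left with few protein-coding counts.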
